A study of Mus musculus with 12 samples.

Results

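The genes described are 10 members of the Notch pathway in mouse muscle cells. They were chosen by name as 3 ligands (Dll1, Jag1 and Jag2), 3 receptors (Notch1, Notch2 and Notch3) and 4 target genes (Hes1, Hey1, Hey2 and Heyl), and they are 10 of the 22342 protein-coding genes of the annotation used. The study mapped 6 histone marks with ChIP-seq, in which DNA bound to a marked histone is pulled down by an antibody and sequenced. The cells were C2C12, myoblasts of mouse strain C3H in a line that fuses into myotubes when serum is withdrawn. The myoblasts were taken near confluence in medium with 10% serum, and the myotubes about 5 days after serum withdrawal, when light trypsin treatment had separated them from cells that had not fused. All cells were at passages 15 to 18. Each mark was sequenced in 1 library per cell type, which gives 12 libraries and no replicate, so a ratio compares a pair of libraries and not the conditions. The myoblast libraries held between 1858771 reads (H3K27ac) and 7033100 reads (H3K36me3), and the myotube libraries between 3298694 (H3K4me3) and 6271899 (H3K4me1). The genome mean was lowest in the myoblast H3K27ac library, at 0.727 reads per kb, so weak H3K27ac is measured least well in myoblasts.

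Markers of the cell types mostly matched the labels. The promoters of 9 myotube genes, such as Acta1 and Myh3, held 40 H3K4me3 reads in myoblasts and 1160 in myotubes, and all 9 lay at 5-fold enrichment or more in myotubes against 1, Myog, in myoblasts. The 7 myoblast and cell cycle genes held 599 H3K4me3 reads in myoblasts and 296 in myotubes, and 7 of 7 lay at 5-fold or more in both. Of these Myod1 alone was higher in myotubes, at 20.9-fold against 15.7-fold. Id1 held the most of these reads, 161 in myoblasts and 90 in myotubes. Pax7 and Pax3, which mark satellite cells, held 18 and 8 reads together, with Pax7 at 6.91-fold and 2.71-fold. Of the 3 fibroblast markers, Col3a1 went from 36-fold to 6.59-fold and Pdgfra from 12.9-fold to 15.9-fold, while Tcf21 had 0 reads and 3 reads. None of the endothelial, blood, neuron, adipocyte and bone markers reached 5-fold H3K4me3 in either cell type. In bulk cells, fewer cells that carry a mark and less of the mark per cell cannot be told apart, and the part of unfused cells in the values below was not tested.

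Notch signalling passes between touching cells. A ligand of the Delta-like or Jagged family on one cell binds a Notch receptor on its neighbour, the receptor is cleaved, and its intracellular domain enters the nucleus, where it joins the DNA-binding protein Rbpj and turns on genes of the Hes and Hey families, which encode repressors. In muscle, the pathway is known for keeping progenitor cells from differentiating. Of the 6 marks, H3K27me3 is laid by Polycomb proteins at silent genes, and H3K36me3 builds up along a gene as it is transcribed. Enhancers carry H3K4me1. Working enhancers and promoters share H3K27ac and H3K4me2, and the promoters add H3K4me3.

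Levels are given as fold enrichment, the reads in a window over the number that the mean of the same library would give. The promoter window reaches 1 kb to either side of the transcription start site (TSS) in mm9, taken for each gene at the annotated TSS with the most H3K4me3 reads. Intervals are exact 95% Poisson intervals and cover counting error only. H3K4me2 marked all 10 promoters in both cell types, from 25.0-fold at Heyl to 95.3-fold at Dll1 in myoblasts and from 12.4-fold at Heyl to 38.7-fold at Hes1 in myotubes. The median over the 10 genes was 45.5-fold in myoblasts and 23.5-fold in myotubes, against 12.8-fold and 7.80-fold over all genes. H3K4me3 separated the members more widely. Notch2, Hes1, Notch1 and Hey1 were highest in myoblasts, at 53.0, 51.2, 44.7 and 40.6-fold, followed by Jag1, Dll1, Jag2 and Hey2, and Notch3 and Heyl were lowest, at 5.07 and 2.30-fold. Each interval in this order overlapped that of the next gene. In myotubes Hes1 stood alone at the top with 58.2-fold (95% interval 49.2 to 68.2), and the other neighbours overlapped. The median over the members was 28.8-fold in myoblasts and 20.1-fold in myotubes, against 4.61 and 4.26-fold over all genes.

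H3K27ac split the promoters into a high and a low group in myoblasts. Notch2, Hes1 and Hey1 had 83.2, 72.2 and 52.3-fold, with intervals above that of Notch1 at 24.1-fold (16.8 to 33.5), and the other 6 genes lay between 2.06-fold at Hey2 and 11-fold at Notch3. In myotubes Hes1 alone kept such a level, 70.9-fold (62.6 to 80.0). Notch2 came next at 28.9-fold and the others reached 17.0-fold at most, with Hey1 at 8.66-fold. H3K4me1 was highest at Heyl in both cell types, 14.4-fold and 8.97-fold, the 98.3 and 98.0 percentile of all promoters, with intervals that overlapped that of the next member. H3K36me3 and H3K27me3 had intervals that include the genome mean at most promoters, from few reads. H3K36me3 lay above it at Notch2 in myoblasts, with 2.36-fold (1.26 to 4.04), and at Jag2 and Heyl in myotubes, with 2.67-fold (1.22 to 5.06) and 2.96-fold (1.42 to 5.45). H3K27me3 lay above it at Hey2 in both cell types, with 3.46-fold (2.08 to 5.41) in myoblasts and 2.80-fold (1.40 to 5.02) in myotubes, and its interval at Notch1 in myoblasts, at 2.00-fold, only just cleared the mean. The median H3K27me3 of the members was 1.19-fold in myoblasts and 0.510-fold in myotubes, against 0.911 and 0.765-fold over all genes. In myotubes 0.510-fold is 2 reads.

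Deposited peaks were compared with the promoters. The share of all promoters that overlap these peaks is not given, so the counts below do not set the members apart from other genes. All 10 promoters overlapped an H3K4me2 peak in both cell types, and 8 overlapped an H3K4me3 peak in both, the exceptions being Hey2 and Heyl. In myotubes 6 promoters overlapped an H3K27ac peak, those of Notch1, Notch2, Notch3, Jag1, Hes1 and Hey1, and 0 overlapped an H3K27me3 peak. The 2 myoblast lists for H3K27 need care. The list deposited with the myoblast H3K27me3 sample held H3K27ac reads at 36.4-fold and H3K27me3 reads at 0.804-fold over the genome mean, and the list deposited with the myoblast H3K27ac sample held them at 0.588-fold and 6.76-fold. Taken as deposited, 7 members overlapped a myoblast H3K27me3 peak and 0 an H3K27ac peak, and with the lists exchanged the counts were 0 and 7. The fold enrichments do not use these lists.

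**Figure D1:**
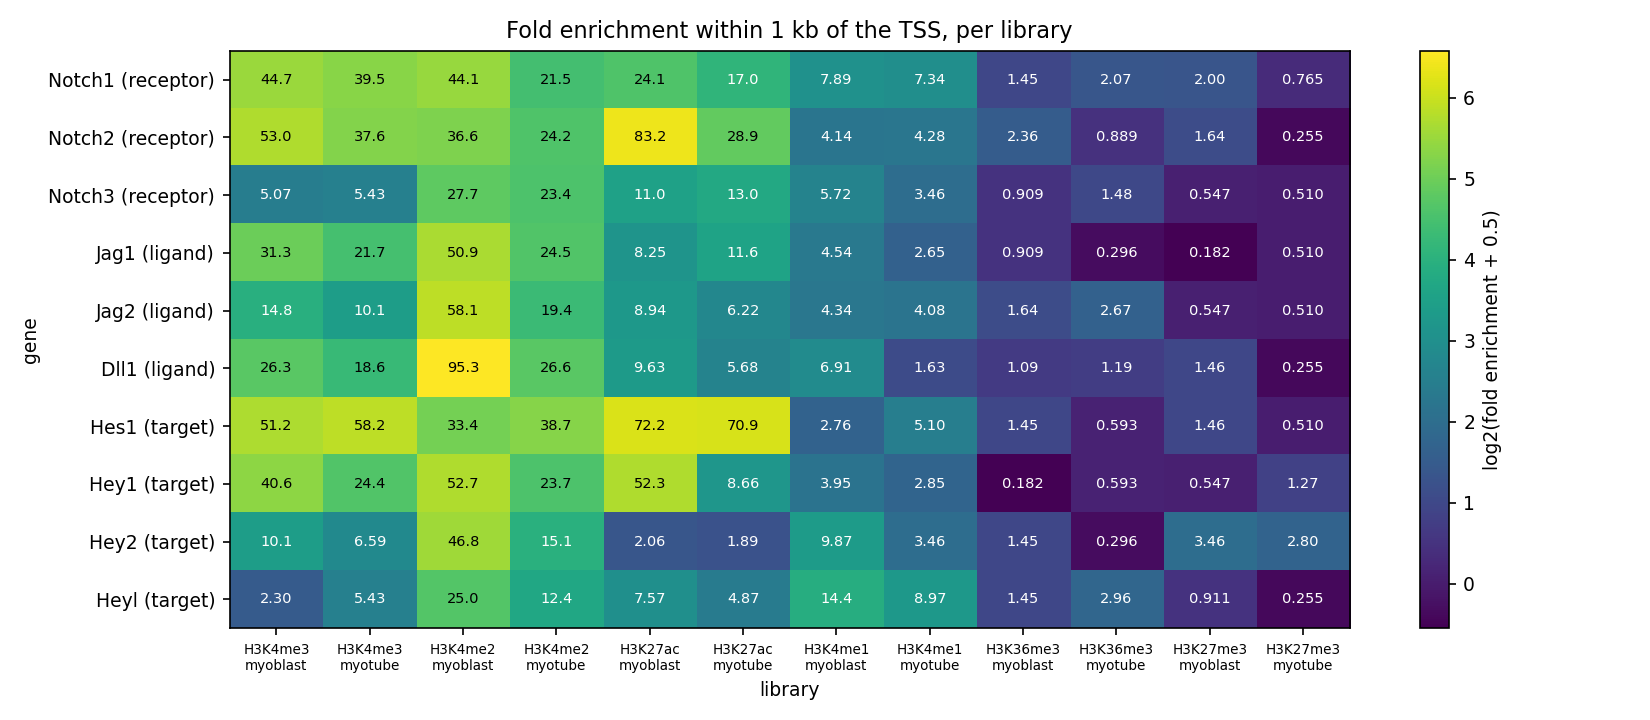
Fold enrichment within 1 kb of the TSS of the 10 genes (vertical axis, with their roles) in each of the 12 libraries (horizontal axis), with the value printed and its log2 after adding 0.5 as colour. H3K4me2 is strong at every gene, with 95.3-fold at Dll1 in myoblasts as the highest value, while H3K27ac at Hes1 is 72.2-fold in myoblasts and 70.9-fold in myotubes.

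The comparison of the cell types asked which members gained or lost a mark as the myoblasts became myotubes. A ratio of myotube to myoblast reads, scaled by total reads, was divided by the median ratio of all tested promoters or gene bodies, and a gene counted as changed when this relative ratio was at least 2 or at most 0.5. Tested means at least 20 reads in both libraries together. The division matters because promoters as a whole shifted. The median ratio over all tested promoters was 0.867 for H3K4me3, 0.589 for H3K4me2, 0.576 for H3K27ac, 0.861 for H3K4me1, 0.941 for H3K36me3 and 0.754 for H3K27me3, and over gene bodies it was 1.01 for H3K36me3 and 1.18 for H3K27me3. The percent of reads in promoters also moved with cell type, from 31.5% to 18.2% for H3K4me2 and from 24.2% to 15.7% for H3K27ac. Whether such shifts come from the libraries or the cells was not tested.

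Of the 10 members, 6 passed the 2-fold rule for at least 1 mark. By total reads alone 9 passed, all but Notch3, and 9 passed when the libraries were scaled by windows outside peaks, all but Hes1. No share of all genes is given for these counts over marks, so they say nothing particular about the members. For H3K4me3, 0 of 9 tested members were higher and 0 lower in myotubes, where 4.93% of all tested promoters were higher and 4.96% lower. For H3K4me2, 0 of 10 were higher and 1, Dll1, was lower, against 8.88% and 9.67%. For H3K27ac, 2 of 9, Notch3 and Jag1, were higher and 1, Hey1, was lower, against 15.1% and 13.6%. For H3K4me1, 1 of 10, Hes1, was higher and 2, Dll1 and Hey2, were lower, against 14.7% and 14.4%. No member promoter had enough H3K36me3 reads to be tested, where 11.3% and 13.5% of the tested promoters were called. Hey2 was the 1 promoter tested for H3K27me3 and was not called, against 8.32% and 12.3%. Over gene bodies, 1 of 10 members, Dll1, gained H3K36me3 and 2, Hes1 and Hey1, lost it, against 7.65% and 7.72%. For H3K27me3 over gene bodies 0 of 9 were higher and 1, Hey1, was lower, against 5.55% and 2.50%. With 10 genes these counts do not set the members apart from other genes, and the median relative ratios of the members were 0.817 for H3K4me3, 0.821 for H3K4me2, 1.21 for H3K27ac and 0.781 for H3K4me1 at promoters, and 0.929 for H3K36me3 and 1.02 for H3K27me3 over bodies.

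The scaling changed several of these counts. By total reads alone, 7 of 10 members were lower for H3K4me2, where 36.8% of all tested promoters were, and 8 were lower when the libraries were scaled by windows outside peaks, where 71.1% were. Under both, H3K27ac was higher at 0 of 9 members and lower at 2, Notch2 and Hey1, against 5.83% and 41.1% of all by total reads and 5.74% and 41.9% with the windows. Hes1 was no longer past 2-fold for H3K4me1 under either, and 4 members were lower with the windows, against 30.2%. Over bodies, H3K36me3 scaled by the windows was higher at 3 members and lower at 1, against 10.9% and 5.26%, and H3K27me3 was higher at Notch1 and lower at 0 members under both scalings, against 11% and 1.28% by total reads and 10.4% and 1.36% with the windows. The balance over all genes moved as well. Higher promoters made up 49.8% of the H3K4me3 calls, but 31.7% by total reads and 35.3% with the windows. For H3K4me2 the share was 47.9%, and 6.17% and 1.92% under these scalings. For H3K27ac it was 52.6%, and 12.4% and 12%. For H3K4me1 it was 50.5%, and 32.6% and 16.5%, or 37.0% when centred on promoters with H3K4me3 peaks in both cell types. For H3K36me3 promoters it was 45.5%, and 61.9% with that centring. For H3K27me3 promoters it was 40.4%, and 9.23%, 8.88% and 52.1% under the 3 alternatives. Over bodies it was 49.8% for H3K36me3, and 67.5% with the windows, and 68.9% for H3K27me3, and 89.5% by total reads and 88.4% with the windows.

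**Figure D2:**
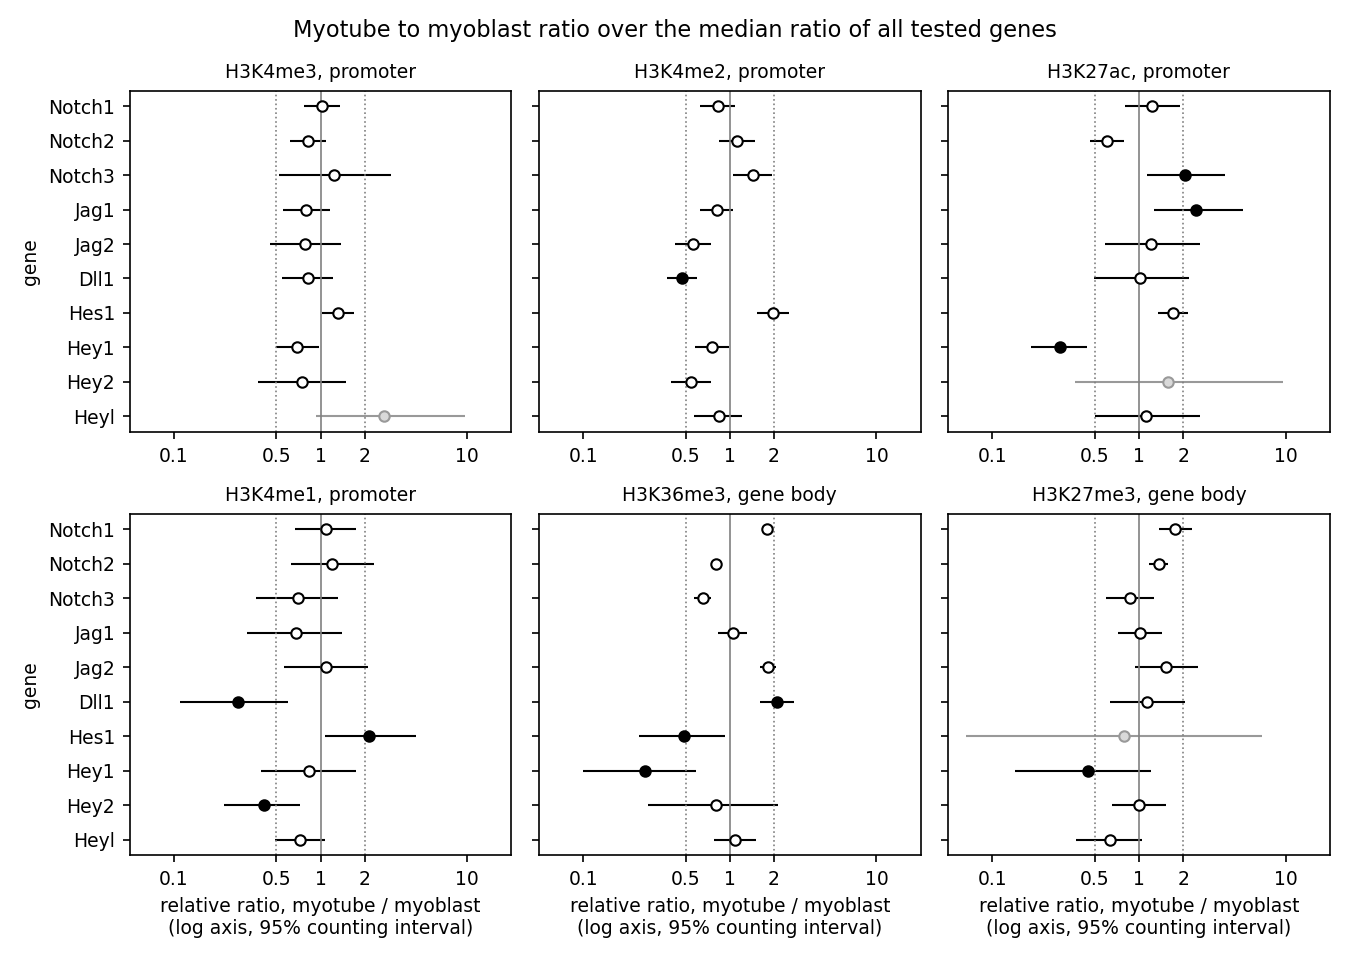
Relative ratio of myotubes to myoblasts (horizontal log axis) of the 10 genes for 4 marks at promoters and 2 over gene bodies, with 95% counting intervals, dotted lines at 0.5 and 2, filled points past 2-fold and grey points with under 20 reads. Dll1 lies at 0.474 for H3K4me2 and 0.274 for H3K4me1, and Hey1 at 0.288 for H3K27ac, each with an interval below 1, while by total reads the points of H3K4me2 and H3K27ac would all lie further left.

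Sequences of these promoters were searched for motifs of Rbpj and of Hes and Hey proteins, and of MyoD and ZBED6, which are outside the pathway. The promoter table used here, of RefSeq on build GRCm38.p6, was matched by gene name for 7 of the 10 genes, and Hes1, Hey1 and Heyl were not matched. In the 250 bases before each RefSeq start, 5 motifs were searched on both strands. GTGGGAA, which Rbpj binds, was found in 1 member, Hey2, and in 5.42% of the 32851 promoters of the table. CACGTG, an E box of Hes and Hey proteins, was found in 0 members and 6.02% of promoters, and CACNAG, an N box of Hes proteins, in 3 members, Notch1, Notch2 and Notch3, and 36.7% of promoters. CAGCTG, an E box that MyoD binds, was found in Dll1 and Jag1 and 13.0% of promoters, and GCTCG, the core of the ZBED6 motif, in 6 members and 24.9% of promoters. Dll1 had 2 entries and was counted if a motif was in 1 of them. The stretches of the members ranged from 56.0% G and C, at a Dll1 entry, to 87.2% at Jag2. The G and C content of all promoters is not given, so the counts do not set the members apart. A match is a description of the letters and not a bound site.

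Dll1 (ENSMUSG00000014773.7, chr17:15504318-15513836, minus strand) encodes a Delta-like ligand, and its promoter was called lower in myotubes for H3K4me2 and H3K4me1. H3K4me2 was 95.3-fold in myoblasts (95% interval 85.1 to 106, 320 reads) and 26.6-fold in myotubes (21.6 to 32.4, 99 reads). It went from the highest of the members, alone at the top, to the next below Hes1, whose interval lay above it, at a level that overlapped that of Jag1, with a relative ratio of 0.474 (0.374 to 0.595), which was 0.279 by total reads. In myoblasts the 250 bp bin just upstream of the TSS had 179-fold H3K4me2. The call ended with 500 bp either side of the TSS, at 0.508, and in the 2 kb downstream of it, at 0.670. H3K4me1 was 6.91-fold (4.81 to 9.61) in myoblasts and 1.63-fold (0.704 to 3.21) in myotubes, and its relative ratio of 0.274 (0.110 to 0.602) was at the 2.77 percentile of all tested promoters and became 0.532 in the 2 kb downstream. H3K4me3 was 26.3-fold and 18.6-fold, with a relative ratio of 0.817 (0.545 to 1.22), and 0.708 by total reads. H3K27ac was 9.63-fold and 5.68-fold, and its relative ratio of 1.02 turned to 0.590 by total reads. In the 2 kb downstream the H3K27ac of Dll1 was called higher, at 2.38 (0.996 to 6.55), as were 17.9% of all tested promoters. Over its body it was also called higher, at 2.04 (0.986 to 4.75), the 85.4 percentile of all tested bodies, or 1.97 by total reads. With 500 bp either side it was 0.638 (0.243 to 1.65). The stretch shown lies upstream of both RefSeq starts of Dll1, at chr17:15513897-15514146 on the minus strand of mm9, and begins 1206 bp before the TSS used here. It is shown because it holds the MyoD E box, in capitals, 1088 bp before that TSS.
Dll1: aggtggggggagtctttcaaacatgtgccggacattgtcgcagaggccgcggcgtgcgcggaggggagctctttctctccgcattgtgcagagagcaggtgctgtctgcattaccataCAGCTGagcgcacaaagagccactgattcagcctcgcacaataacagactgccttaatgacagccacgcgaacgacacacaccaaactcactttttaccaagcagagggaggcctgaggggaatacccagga

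Jag1 (ENSMUSG00000027276.7, chr2:136907192-136942380, minus strand) encodes a Jagged ligand, and its active marks went different ways. H3K27ac was 8.25-fold (4.26 to 14.4, 12 reads) in myoblasts and 11.6-fold (8.42 to 15.7, 43 reads) in myotubes. The levels overlapped, with a ratio of 1.41 (0.730 to 2.94) by total reads. Since the median ratio of all tested promoters was 0.576, the relative ratio was 2.45 (1.27 to 5.10). The direction turned in the 2 kb downstream of the TSS, where the relative ratio was 0.622 (0.304 to 1.26). H3K4me3 was 31.3-fold and 21.7-fold, H3K4me2 50.9-fold and 24.5-fold, and H3K4me1 4.54-fold and 2.65-fold. Their relative ratios were 0.799, 0.815 and 0.678, with intervals that include 1. H3K4me2 passed 2-fold by total reads, at 0.480, and with windows outside peaks, at 0.309, and H3K4me1 passed it with the windows, at 0.472. The bases shown lie at chr2:136942381-136942506 on the minus strand of mm9 and end just before the TSS. The capitals mark the ZBED6 core, read on the opposite strand, 15 bp before it, while the E box of Jag1 lies 42 bp past the TSS and outside the stretch.
Jag1: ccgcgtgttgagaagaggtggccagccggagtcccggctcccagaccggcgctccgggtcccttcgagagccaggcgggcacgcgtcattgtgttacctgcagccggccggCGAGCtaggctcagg

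Jag2 (ENSMUSG00000002799.5, chr12:114146801-114167706, minus strand), the other Jagged ligand, had less H3K4me3 than Jag1, 14.8-fold (10.1 to 20.8) in myoblasts and 10.1-fold (6.58 to 14.8) in myotubes. Its H3K4me2 was 58.1-fold (50.2 to 66.8) and 19.4-fold (15.1 to 24.4), levels that did not overlap, and the relative ratio was 0.565 (0.425 to 0.744), short of the 2-fold rule. By total reads this ratio was 0.333, and in the 2 kb downstream it passed the rule at 0.430 (0.319 to 0.573). H3K27ac was 8.94-fold and 6.22-fold, with a relative ratio of 1.21 that turned to 0.696 by total reads, and H3K4me1 was 4.34-fold and 4.08-fold, with 1.09 that turned to 0.939. The 3 ligand promoters thus had H3K4me2 ratios below 1 under each scaling, as did Notch1, Hey1, Hey2 and Heyl. By total reads the median over all tested promoters was 0.589. For H3K27ac the relative ratios of the 3 ligands were above 1, and those of Dll1 and Jag2 were below 1 by total reads.

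Notch1 (ENSMUSG00000026923.8, chr2:26313423-26372183, minus strand) is a receptor with 4 annotated start sites, of which the one at 26359342 held 199 H3K4me3 reads in both cell types together and each of the others 8 or fewer. At this promoter H3K4me3 was 44.7-fold (36.3 to 54.5) in myoblasts and 39.5-fold (32.2 to 48.0) in myotubes, and H3K27ac was 24.1-fold (16.8 to 33.5) and 17.0-fold (13.1 to 21.8). H3K4me1 was 7.89-fold and 7.34-fold. These levels overlapped between the cell types, and the relative ratios of 1.02, 1.23 and 1.08 turned to 0.884, 0.708 and 0.929 by total reads. H3K4me2 went from 44.1-fold to 21.5-fold, with a relative ratio of 0.828 (0.623 to 1.09). It passed 2-fold by total reads, at 0.488, and with windows outside peaks, at 0.314.

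Notch2 (ENSMUSG00000027878.9, chr3:97817461-97954290, plus strand), also a receptor, was with Hes1, whose interval overlapped, among the most acetylated promoters of the members in myoblasts. H3K27ac was 83.2-fold (69.1 to 99.4) in myoblasts and 28.9-fold (23.7 to 35.0) in myotubes. The levels did not overlap, and the relative ratio of 0.604 (0.461 to 0.790) stayed within 2-fold, while by total reads it was 0.348. H3K4me3 was 53.0-fold and 37.6-fold, with a relative ratio of 0.818 (0.618 to 1.08). H3K4me2 was 36.6-fold and 24.2-fold and H3K4me1 4.14-fold and 4.28-fold, and their relative ratios of 1.12 and 1.2 were below 1 with scaling by windows outside peaks, at 0.425 and 0.834. In the 2 kb downstream H3K4me1 was called higher, at 3.31 (1.43 to 8.57).

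Notch3 (ENSMUSG00000038146.7, chr17:32257765-32303825, minus strand), the remaining receptor, had a weak H3K4me3 promoter, 5.07-fold (2.53 to 9.07, 11 reads) in myoblasts and 5.43-fold (2.97 to 9.11, 14 reads) in myotubes. H3K27ac was 11-fold (6.29 to 17.9) and 13.0-fold (9.57 to 17.2). The levels overlapped, and since the median promoter was lower in myotubes, the relative ratio was 2.05 (1.14 to 3.87), which was no longer past 2-fold at 1.18 by total reads and at 1.26 in the 2 kb downstream. H3K4me2 was 27.7-fold and 23.4-fold, with a relative ratio of 1.43 (1.06 to 1.94) that turned to 0.844 by total reads and to 0.735 (0.543 to 0.986) in the 2 kb downstream. H3K4me1 at the promoter was 5.72-fold and 3.46-fold, with 0.703 (0.363 to 1.32), which was 0.489 with scaling by windows outside peaks, 0.375 with 500 bp either side and 0.441 in the 2 kb downstream, each past 2-fold. Over the gene body the active marks were lower in myotubes. There H3K4me3 went from 1.31-fold (1.01 to 1.67) to 0.465-fold (0.306 to 0.676), and H3K4me2 from 3.74-fold (3.32 to 4.21) to 1.78-fold (1.5 to 2.09). H3K4me1 in the body was 4.13-fold and 2.16-fold, and H3K27ac was 3.97-fold and 2.35-fold. By relative ratio H3K4me3, at 0.358, and H3K4me2 were called lower, at the 1.35 and 10.2 percentile of all tested bodies. H3K4me1, at 0.518, and H3K27ac, at 0.616, stayed within 2-fold. Hey1 was also called lower over its body for H3K4me2, at 0.237, and H3K27ac, at 0.272, and Jag1 for H3K4me2, at 0.378. Dll1 was called higher for H3K27ac, at 2.04. The share of all bodies called is not given for H3K4me3, H3K4me2 and H3K27ac, so these calls do not set the members apart. For H3K4me2, Hes1 stayed within 2-fold at 0.512 and was already at the 17.7 percentile of all tested bodies. The 250 bases before the RefSeq start of Notch3, at chr17:32303836-32304085 on the minus strand of mm9, are shown because they hold 2 N boxes and 2 ZBED6 cores, in capitals. The first N box, 214 bp before the TSS, overlaps the first core, which is read on the opposite strand like the second.
Notch3: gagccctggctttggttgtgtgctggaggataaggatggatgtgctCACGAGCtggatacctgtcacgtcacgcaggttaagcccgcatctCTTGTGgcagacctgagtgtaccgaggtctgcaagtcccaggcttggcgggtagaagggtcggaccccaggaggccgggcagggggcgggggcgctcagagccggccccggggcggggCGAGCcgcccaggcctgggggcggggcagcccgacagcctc

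Hes1 (ENSMUSG00000022528.7, chr16:30064470-30067882, plus strand) encodes a repressor and is the best known Notch target. It was the 1 member whose 4 active promoter marks all had relative ratios above 1 with intervals off 1. H3K4me3 was 51.2-fold (42.1 to 61.6) in myoblasts and 58.2-fold (49.2 to 68.2) in myotubes, and the relative ratio was 1.31 (1.02 to 1.69). H3K4me2 was 33.4-fold (27.5 to 40.1) and 38.7-fold (32.6 to 45.6), with 1.97 (1.53 to 2.54), which turned to 0.747 with scaling by windows outside peaks and was 4.96 (3.02 to 8.44) with 500 bp either side. H3K27ac was 72.2-fold (59.1 to 87.4) and 70.9-fold (62.6 to 80.0), with 1.71 (1.35 to 2.16), which turned to 0.982 by total reads and was 3.51 (2.03 to 6.43) with 500 bp either side. In the 2 kb downstream the relative ratio was 1.08 (0.916 to 1.28) for H3K27ac and 1.02 for H3K4me3, with intervals that include 1. For H3K4me2 the ratio there was 1.35 (1.08 to 1.70). H3K4me1 was 2.76-fold (1.51 to 4.64) and 5.10-fold (3.30 to 7.52), with 2.14 (1.07 to 4.46), the 1 mark past 2-fold here. It was 1.84 by total reads, 1.49 with the windows, 1.91 when centred on promoters with H3K4me3 peaks in both cell types, and 1.89 in the 2 kb downstream. Hes1 thus had overlapping levels of these marks in both libraries, whereas the median promoter was lower in myotubes. The signal of this short gene is not centred on the TSS. H3K27ac was highest in the bin 1375 bp past the TSS in both cell types, with 380-fold and 178-fold. The part of the gene more than 1 kb past the TSS, 1.46 kb long, had 164-fold H3K27ac (140 to 190) in myoblasts and 87.0-fold (76.2 to 98.9) in myotubes, and these levels did not overlap. The promoter window and the rest of Hes1 therefore gave relative ratios on opposite sides of 1 for H3K27ac, 1.71 and 0.553, although by total reads both were below 1, at 0.982 and 0.532.

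Hey1 (ENSMUSG00000040289.3, chr3:8663362-8667039, minus strand), a repressor of the Hey family, showed the opposite pattern of relative ratios. H3K27ac was 52.3-fold (41.2 to 65.4, 76 reads) in myoblasts and 8.66-fold (5.92 to 12.2, 32 reads) in myotubes. The levels did not overlap, and the relative ratio of 0.288 (0.184 to 0.440) was at the 3.26 percentile of all tested promoters and was 0.166 by total reads. H3K4me3 was 40.6-fold (32.5 to 50.0) and 24.4-fold (18.8 to 31.3), with a relative ratio of 0.695 (0.494 to 0.971). H3K4me2 was 52.7-fold and 23.7-fold, with 0.761 (0.583 to 0.989), and H3K4me1 was 3.95-fold and 2.85-fold, with 0.840 (0.393 to 1.75). All 4 marks were thus below 1 under each scaling, and H3K27ac was the 1 past 2-fold under all 3, while H3K4me2 passed it by total reads, at 0.449, and with windows outside peaks, at 0.289. The highest H3K27ac bin in myoblasts, 375 bp past the TSS, had 110-fold, and in myotubes no bin within 5 kb was above 17.3-fold.

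Hey2 (ENSMUSG00000019789.8, chr10:30552165-30562607, minus strand), another Hey repressor, carried H3K4me2, with little acetylation and with H3K27me3 reads above the genome mean but no H3K27me3 peak. H3K4me2 was 46.8-fold (39.7 to 54.7) in myoblasts and 15.1-fold (11.4 to 19.5) in myotubes, with a relative ratio of 0.546 (0.395 to 0.745), which was 0.496 in the 2 kb downstream. H3K4me1 was 9.87-fold (7.32 to 13.0) and 3.46-fold (2.02 to 5.55), levels that did not overlap, and the relative ratio of 0.408 (0.221 to 0.720) passed the 2-fold rule, though not with 500 bp either side of the TSS, at 0.643. H3K27ac gave 3 and 7 reads, 2.06-fold and 1.89-fold, whose intervals include the genome mean. H3K4me3 was 10.1-fold (6.36 to 15.4) and 6.59-fold (3.84 to 10.6). H3K27me3, at 3.46-fold and 2.80-fold, was at the 91.4 percentile of all promoters in both cell types, and its relative ratio of 1.08 (0.462 to 2.38) turned to 0.810 by total reads. The 232 bases before the TSS, at chr10:30562608-30562839 on the minus strand of mm9, are shown for the Rbpj motif, in capitals and read on the opposite strand, 189 bp before the TSS.
Hey2: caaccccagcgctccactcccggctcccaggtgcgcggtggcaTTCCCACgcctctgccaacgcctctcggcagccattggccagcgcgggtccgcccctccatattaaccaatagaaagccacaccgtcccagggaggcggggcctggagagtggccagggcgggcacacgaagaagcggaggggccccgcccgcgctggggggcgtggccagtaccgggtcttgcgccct

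Heyl (ENSMUSG00000032744.4, chr4:122910799-122927118, plus strand), the remaining Hey repressor, had much H3K4me1 and little H3K4me3 in myoblasts, with intervals that overlapped those of Hey2 and Notch3. H3K4me1 was 14.4-fold (11.3 to 18.1) in myoblasts and 8.97-fold (6.52 to 12) in myotubes, with a relative ratio of 0.723 (0.486 to 1.07). H3K4me3 gave 5 and 14 reads, 2.30-fold (0.748 to 5.38) and 5.43-fold (2.97 to 9.11), too few for the test. With a minimum of 10 reads in place of 20, Heyl counted as higher, with a relative ratio of 2.72 (0.925 to 9.64). H3K27ac was 7.57-fold and 4.87-fold, and the relative ratio of 1.12 turned to 0.644 by total reads. H3K4me2 was 25.0-fold and 12.4-fold, with 0.839 (0.572 to 1.22), and passed 2-fold by total reads, at 0.494, and with windows outside peaks, at 0.318. By relative ratio the 4 target genes thus lay on both sides of 1, but this depended on the scaling. With windows outside peaks the H3K4me2 of all 4 was below 1, at 0.747 for Hes1, 0.289 for Hey1, 0.207 for Hey2 and 0.318 for Heyl. By total reads the H3K27ac of Hes1, Hey1 and Heyl was below 1, at 0.982, 0.166 and 0.644. For H3K4me3 and H3K4me1, Hes1 stayed above 1 under both scalings.

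**Figure D3:**
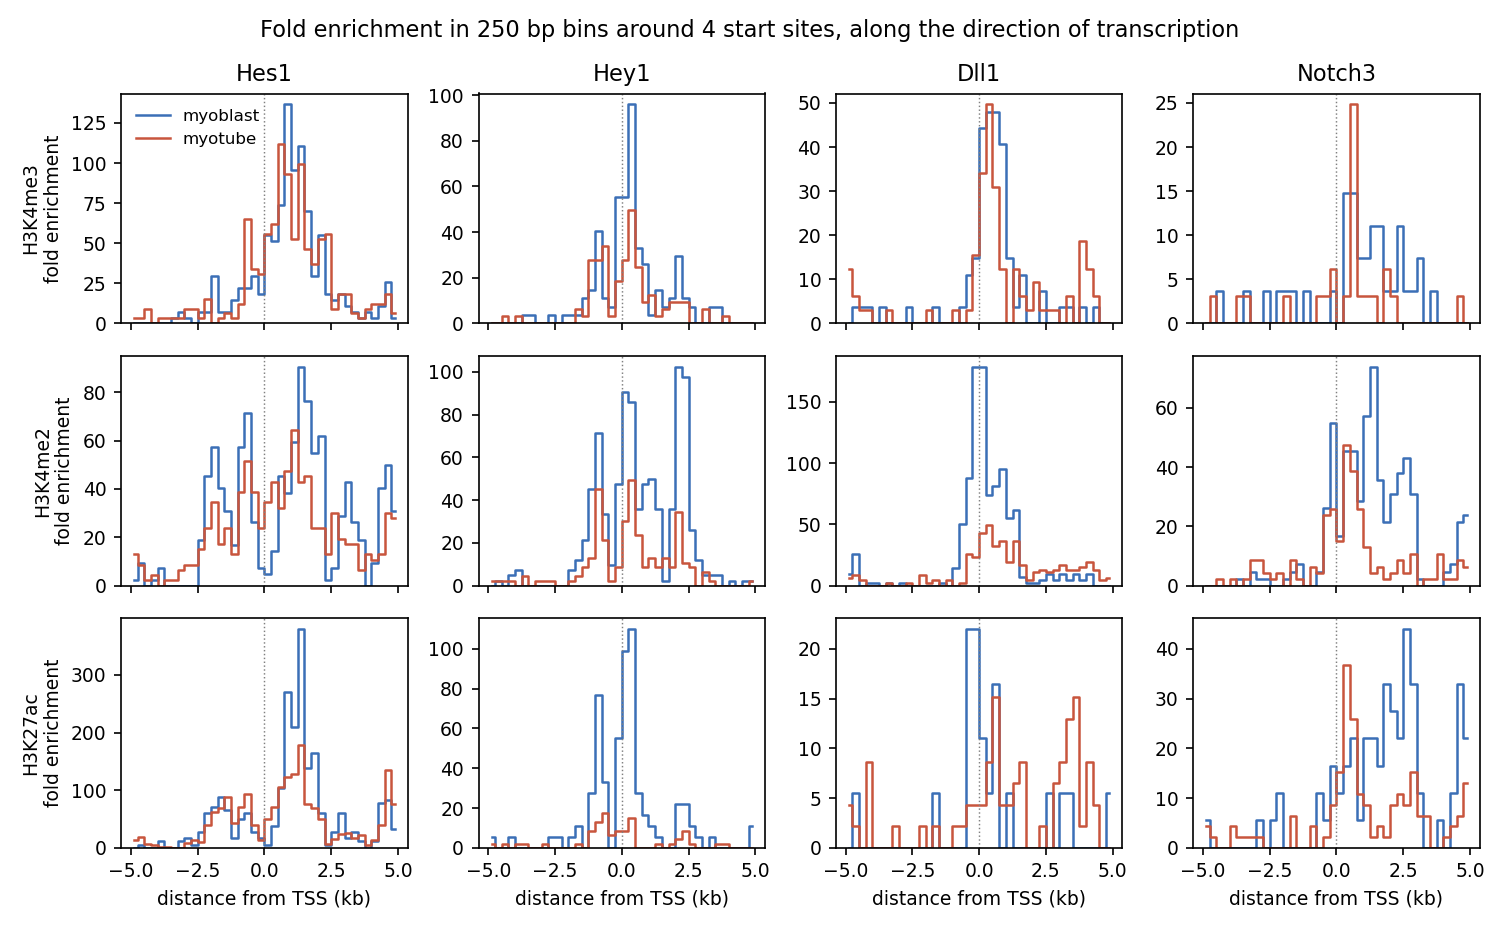
Fold enrichment of H3K4me3, H3K4me2 and H3K27ac (vertical axes, each with its own scale) in 250 bp bins up to 5 kb from the TSS (horizontal axis, in the direction of transcription) of Hes1, Hey1, Dll1 and Notch3, in myoblasts (blue) and myotubes (red). The H3K27ac of Hes1 is highest 1375 bp past the TSS in both, at 380-fold and 178-fold, and the H3K4me2 of Dll1 at the TSS reaches 179-fold in myoblasts.

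H3K36me3 over gene bodies put the receptors and ligands in a different order in the 2 cell types. In myoblasts Notch2 (11.9-fold), Notch1 (11.2-fold), Hes1 (10.7-fold) and Jag2 (8.92-fold) were highest, each overlapping the next, and in myotubes Notch1 (20.4-fold, 19.4 to 21.5) and Jag2 (16.5-fold, 15.1 to 17.9) stood apart from each other and from the rest. Dll1 went from 5.01-fold (4.10 to 6.07) to 10.7-fold (8.95 to 12.6), a relative ratio of 2.11 (1.62 to 2.74). The H3K4me2 and H3K4me1 of Dll1, lower at its promoter, were not lower over its body, at 1.11 (0.843 to 1.48) and 1.44 (1.05 to 1.98). Jag2 and Notch1 stayed short of 2-fold, with relative ratios of 1.83 (1.62 to 2.07) and 1.80 (1.68 to 1.94), and passed it, at 2.06 and 2.03, when scaled by windows outside peaks. Hes1 went from 10.7-fold (7.77 to 14.5) to 5.30-fold (2.82 to 9.06), with 0.488 (0.241 to 0.924), which was 0.551 with the windows. Hey1 went from 5.84-fold (4.23 to 7.87) to 1.55-fold (0.624 to 3.20), with 0.263 (0.0997 to 0.589), at the 1.29 percentile of all tested bodies. Hey1 was thus lower in H3K27ac at its promoter and in H3K36me3 over its body. Notch3 was 6.03-fold and 3.98-fold, with 0.652 (0.569 to 0.747), and Notch2 was 11.9-fold and 9.73-fold, with 0.809 (0.768 to 0.851). Jag1 and Heyl lay between 2.10-fold and 2.52-fold in both cell types. Hey2 was below the genome mean in both, at 0.539-fold (0.295 to 0.905) and 0.440-fold (0.177 to 0.906).

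H3K27me3 over the bodies was 2.32-fold or less. The median of the members was 0.852-fold in myoblasts and 1.08-fold in myotubes, against 0.763 and 1.07-fold over all genes. Among all bodies, Hey2 was at the 85.0 and 87.5 percentile in myoblasts and myotubes, and Hey1 at the 87.0 and 54.3 percentile. Hey2 was 1.97-fold (1.47 to 2.59) in myoblasts and 2.32-fold (1.68 to 3.13) in myotubes, with a relative ratio of 1.0. Hey1 was 2.18-fold (1.25 to 3.54) and 1.14-fold (0.420 to 2.49), and its relative ratio of 0.446 (0.143 to 1.2), called lower from 22 reads, was 0.525 by total reads, 0.521 with reads not extended and 0.750 over the whole gene. Notch1 was 0.795-fold (0.646 to 0.969) and 1.66-fold (1.40 to 1.95), levels that did not overlap, with 1.77 (1.36 to 2.31), and 2.08 by total reads. Over the body of Notch1 both H3K36me3 and H3K27me3 were thus higher in myotubes, and whether they passed 2-fold depended on the scaling. Notch2 was 0.883-fold and 1.42-fold, with 1.37 (1.18 to 1.59). Notch3 was 0.566-fold (0.441 to 0.715) and 0.577-fold (0.430 to 0.759), and its relative ratio of 0.867 turned to 1.02 by total reads.

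**Figure D4:**
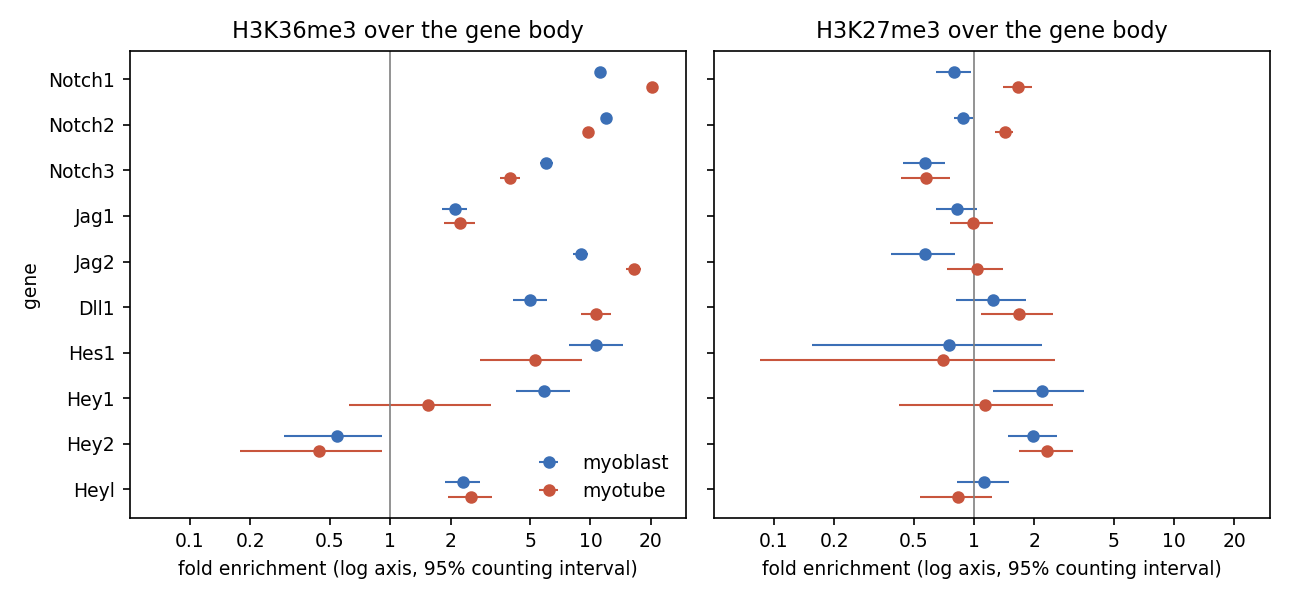
Fold enrichment of H3K36me3 (left) and H3K27me3 (right) over the body of each of the 10 genes (horizontal log axis), in myoblasts (blue) and myotubes (red), with 95% counting intervals and a line at the genome mean. H3K36me3 of Dll1 goes from 5.01-fold to 10.7-fold and that of Hey1 from 5.84-fold to 1.55-fold, while H3K27me3 stays at 2.32-fold or less.

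Acetylated sites were found inside 8 of the genes. Peaks over 1 kb from the TSS were taken from the myotube H3K27ac list and from the myoblast list whose name gives H3K27ac, the one deposited with the H3K27me3 sample, and up to 2 per gene with the highest H3K27ac in either cell type are described. A peak called in 1 cell type is expected to be higher there, so these levels show where the sites are and do not test a change. Notch1 held 8 sites, 6 of them with the higher level in myotubes and 2 with the lower. One lay 45.1 kb past the TSS, near the end of the gene, with 18.7-fold H3K27ac in myoblasts and 35.6-fold in myotubes, and another 8.76 kb past the TSS with 26.7-fold and 4.77-fold. Notch2 held 17, of which 6 were higher and 11 lower, with 27.3-fold and 37.6-fold at 12.8 kb and 31.3-fold and 4.61-fold at 26.6 kb. Notch3 held 5, of which 1 was higher and 4 lower, with 30.6-fold and 12-fold at 5.03 kb and 28.4-fold and 9.77-fold at 2.55 kb. At Jag1 the site 1.99 kb past the TSS had 25.6-fold and 4.70-fold, and it reaches into the window in which the promoter call of Jag1 turned. The other Jag1 site, at 6.80 kb, had 4.70-fold and 11.1-fold, from 2 and 12 reads. Jag2 held 1 site, at 12.2 kb, with 7.05-fold and 26.1-fold, and H3K4me1 there was 4.05-fold and 13.8-fold. Dll1 held 1, at 3.44 kb, with 3.12-fold and 11.1-fold, from 2 and 18 reads. Hey1 held 1, at 2.28 kb, with 22.4-fold and 5.28-fold. Heyl held 3, with 27-fold and 18.8-fold at 6.08 kb, and 1.64-fold and 14.8-fold, from 1 and 23 reads, at 13.7 kb. Hes1 and Hey2 held no such peak.

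Likeness of promoters over the 12 libraries was measured as the Euclidean distance of log2 fold enrichment, after adding 0.5. Jag2 lay closest to Copz2, at a distance of 0.88, where its median distance to all genes was 5.86, and to Six5 and Dync2li1. Notch1 lay closest to Letm1 (1.02), Aaas and Mcat, Hes1 to Dscr3 (1.01), Bud31 and Tlr4, and Notch2 to Ddx39 (1.14), Rpl27a and Zc3hav1. Among the members themselves, the closest pair was Hes1 and Notch2, at 1.86, and Hey2 was farthest from any other, 4.29 from Jag2. Dll1 lay closest to Mycl1 (1.31), Fnbp1 and Gdf11, and Jag1 to Slc6a9 (1.23), Nae1 and Gch1. Notch3 lay closest to Nhlrc1, at 1.77. Of the remaining targets, Hey1 lay closest to 9630014M24Rik, Far1 and Fignl1, each at 1.44, Hey2 to Sarm1 (1.12), Peli3 and Kank1, and Heyl to Hsd11b2 (1.58), 2900026A02Rik and Cgref1.

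The other 47 pathway genes include the ligands, cofactors and regulators that are not members. Of 36 tested for H3K27ac, 10 were higher and 2 lower in myotubes, against 15.1% and 13.6% of all tested promoters, with a median relative ratio of 1.36. By total reads the balance turned, to 4 higher and 8 lower, against 5.83% and 41.1% of all. For H3K4me3, 2 of 37 were higher and 2 lower, against 4.93% and 4.96%, with a median of 0.970. For H3K4me2, 5 of 41 were higher and 1 lower, against 8.88% and 9.67%, and by total reads 1 was higher and 12 lower, against 2.42% and 36.8%. For H3K4me1 5 of 34 were higher and 4 lower, against 14.7% and 14.4%, and with windows outside peaks 2 were higher and 7 lower, against 5.95% and 30.2%. For H3K36me3 at promoters 0 of 5 were higher and 1 lower, against 11.3% and 13.5%, and for H3K27me3 at promoters 0 of 9 were higher and 0 lower, against 8.32% and 12.3%, while 3 were lower by total reads, against 24.6%. Over bodies, 7 of 39 were higher and 2 lower for H3K36me3, against 7.65% and 7.72%. For H3K27me3 over bodies 2 of 39 were higher and 2 lower, against 5.55% and 2.50%, and by total reads 4 were higher and 1 lower, against 11% and 1.28%. Fbxw7, part of the ubiquitin ligase that turns over the Notch intracellular domain, had 1.84-fold H3K4me3 in myoblasts and 50.4-fold in myotubes, a relative ratio of 31.5 (12 to 117), and 0.688-fold and 18.4-fold H3K27ac, with 46.5 (8.06 to 1862) from 1 and 68 reads. Neurl1a, an E3 ubiquitin ligase, had 1.38-fold and 41.5-fold H3K4me3, with 34.6 (11.5 to 170), and 10.3-fold and 28.1-fold H3K27ac, with 4.74 (2.74 to 8.77). These promoters were named for their high ratios, and for H3K4me3 and H3K27ac both had higher relative ratios than any tested member. The H3K27ac interval of Neurl1a overlapped that of Jag1 (1.27 to 5.10), and the H3K4me1 of Neurl1a had 0.878. Lfng, the Fringe enzyme that adds sugar to Notch receptors, fell. Its H3K4me3 was 47.5-fold and 9.31-fold, with 0.226 (0.139 to 0.355), its H3K27ac 67.4-fold and 6.49-fold, with 0.167 (0.102 to 0.264), and its H3K36me3 over the body had 0.337 (0.230 to 0.483). Numbl had 0.439 (0.241 to 0.771) for H3K4me3 and Dtx4 0.362 (0.218 to 0.588) for H3K27ac. For H3K36me3 over bodies, Psen2, a subunit of the protease that cleaves Notch, had 4.74 (3.85 to 5.86), Mib2, a ligase of Notch ligands, 2.68 (2.22 to 3.24), and Rbpj 0.499 (0.409 to 0.606), which was no longer past 2-fold at 0.504 by total reads and 0.563 with windows outside peaks. For H3K27me3 over bodies, Snw1 had 2.93 (1.87 to 4.73), Furin 2.31 (1.22 to 4.52), Hes3 0.0627 (0.00151 to 0.394), from 19 reads and 1 read, and Lfng 0.463 (0.163 to 1.16), which was no longer past 2-fold at 0.544 by total reads and 0.538 with the windows.

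**Figure D5:**
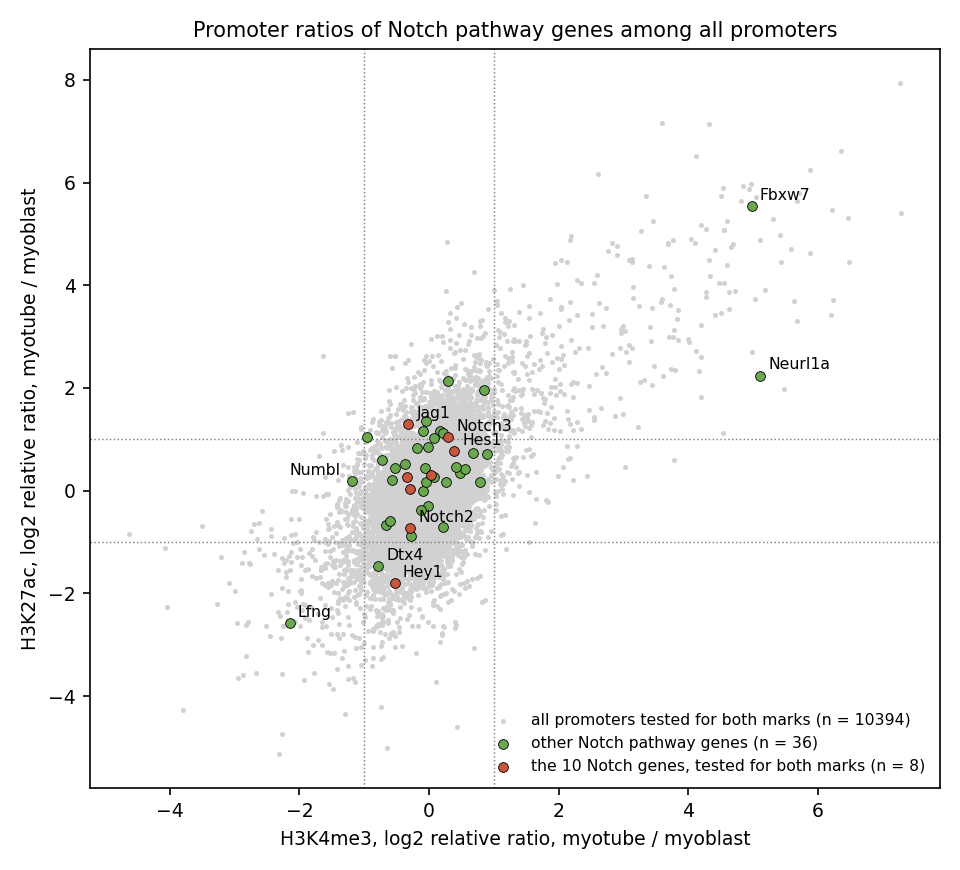
Log2 relative ratio of myotubes to myoblasts for H3K4me3 (horizontal axis) and H3K27ac (vertical axis) at promoters tested for both marks. Those of the 10 Notch genes are in red, other pathway genes in green and all promoters in grey, with dotted lines at 2-fold. Hey2, with 10 H3K27ac reads, and Heyl, with 19 H3K4me3 reads, were not tested for both and are not drawn. Hey1, at -0.53 and -1.80, lies toward Lfng, while Fbxw7 and Neurl1a lie far out at the upper right, and by total reads every point would lie lower on both axes.

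Each value above rests on 1 library, and no input library was used here, so no difference could be set against a spread between replicates. For weak marks the depth was the limit, since 1-fold H3K27ac in a promoter window was 1.45 reads in myoblasts, and no member promoter reached the minimum of 20 H3K36me3 reads.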

How the data were processed

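Reads of 12 ChIP-seq libraries of C2C12 cells were used, 1 for each of 6 histone marks in myoblasts and in myotubes. The reads were aligned to mm9 by the authors with Mosaik, uniquely aligned reads were kept, and the deposited read files are counts of 1 per line. Each peak in the deposited lists carries the MACS score of the authors, whose settings and control are not given. Reads of 34 bp on chromosomes 1 to 19 and X were extended to 150 bp and their midpoints counted. Genes came from GENCODE M1, and a gene body ran from 1 kb past the TSS to the end of the gene. Bodies under 1 kb were left out. Fold enrichment is over the library mean on 2555806925 bases other than N. Intervals of ratios are exact conditional binomial intervals at 95%. With 1 library per group no p-value was computed.

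The members and lists were chosen with earlier results of these data known. The rule for named genes gave all 10 members, up to the 2 highest and 2 lowest other pathway genes past 2-fold for H3K4me3, H3K27ac, H3K36me3 over bodies and H3K27me3, the 3 promoters most like each member, and up to 2 internal H3K27ac peaks per member. Promoter sequences came from RefSeq (GRCm38.p6) matched by name and were read from mm9. The bases past the TSS used here, and 1 of 2 Dll1 entries, were not printed.

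Each alternative changed a single choice. Tried were scaling by total reads or by 10 kb windows outside peaks, reads not extended, 1 read per position and strand, a minimum of 10 reads or none, a fold of 1.5, 500 bp either side of the TSS, 2 kb downstream, the 5′-most TSS, the whole annotated gene, a background of 200 kb, lists exchanged, a score of at least 100 and a peak that covers the TSS. Centring on promoters with H3K4me3 peaks in both cell types was chosen after seeing the data. The steps were tested on simulated data. Calculations ran under Python 3.11.15 with scipy 1.17.1, pandas 2.3.3, matplotlib 3.10.9 and numpy 2.4.6.

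Of the genes closest to Notch3 in pattern, only the first is reported here.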

Additional observations from a re-analysis of the deposited data

How the results depend on the processing

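Of 82 alternative counts of members past 2-fold, 62 stayed within 1.5 times the reported count, but 13 of these 62 came from a different set of members. The other 49 did not change which members were called. They include every such alternative for H3K4me3, H3K36me3 and H3K27me3 promoters, where no member was called in either setting and no call could be lost. For H3K4me2, 500 bp either side gave Hes1 higher in place of Dll1 lower. In the 2 kb downstream H3K27ac was called higher at Dll1 in place of Notch3 and Jag1, and H3K4me1 was called at Notch2, Notch3 and Hey2 in place of Hes1, Dll1 and Hey2. Of 76 alternative relative ratios of the called members, 70 stayed within the counting interval, 5 left it and 1 turned. Where a value moved, the cause was not tested. The ratio of Jag1 for H3K27ac turned from 2.45 to 0.622 in the 2 kb downstream of the TSS. Counts of members past 2-fold moved as follows. For H3K4me2 (reported 1) it was 7 by total reads, 8 with windows outside peaks, 2 with reads not extended, 2 without a minimum, 4 at a fold of 1.5, 2 in the 2 kb downstream and 2 at the 5′-most TSS. With a minimum of 10 reads it was 1 for H3K4me3 (reported 0), 3 for H3K36me3 promoters (reported 0) and 3 for H3K27me3 promoters (reported 0), and without a minimum 1, 6 and 7. At a fold of 1.5 it was 5 for H3K27ac (reported 3), 6 for H3K36me3 bodies (reported 3) and 4 for H3K27me3 bodies (reported 1). With 500 bp either side it was 1 for H3K4me1 (reported 3), where 5 members had enough reads to be tested. The call was Notch3, while Hes1 and Dll1, with too few reads there, had ratios of 2.50 and 0.321. With reads not extended the count was 1 for H3K36me3 promoters and 0 for H3K27me3 bodies, and with the whole gene 0 for H3K27me3 bodies.

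Over the 200 kb around the TSS in place of the genome mean, members with an interval above the background numbered 6 in place of 10 for H3K4me1 in myoblasts, 5 in place of 9 in myotubes, 0 in place of 1 and 0 in place of 2 for H3K36me3 in myoblasts and myotubes, and 1 in place of 2 for H3K27me3 in myoblasts. Members with a peak numbered 7 in place of 0 for H3K27ac and 0 in place of 7 for H3K27me3 in myoblasts with the lists exchanged. For H3K4me1 peaks they were 2 in place of 6 in myoblasts and 0 in place of 2 in myotubes where a peak had to cover the TSS, and 0 in myotubes at a score of at least 100. No paired analysis was possible because each group has 1 library per mark and the cell types are not matched by sample.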

Other observations

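H3K27me3 lay above the genome mean at some promoters of pathway genes outside the 10 members, which are named after their values were seen. Of 47 such genes, 9 had an interval above the genome mean in myoblasts, 8 in myotubes and 7 in both. The share of all promoters with such an interval is not given, so these counts do not set the pathway apart. Dll3, with the lowest level of the 9 genes above the mean in myoblasts, was at the 83.8 percentile of all promoters. In myoblasts Hes2 had 8.93-fold (95% interval 6.60 to 11.8), Hes5 6.01-fold (4.14 to 8.44), Dll4 5.83-fold (3.99 to 8.23), Dtx1 5.65-fold (3.84 to 8.02), Notch4 4.55-fold (2.95 to 6.72), Dlk1 4.01-fold (2.51 to 6.07) and Hes3 3.83-fold (2.37 to 5.85). In myotubes they had 4.33-fold (2.52 to 6.94), 2.55-fold (1.22 to 4.69), 3.57-fold (1.95 to 5.99), 3.82-fold (2.14 to 6.31), 2.80-fold (1.40 to 5.02), 1.78-fold (0.717 to 3.68) and 3.82-fold (2.14 to 6.31), so the interval of Dlk1 includes the genome mean there. Mfng had 2.37-fold (1.26 to 4.05) and 2.55-fold (1.22 to 4.69), and the ligand Dll3 2.19-fold (1.13 to 3.82) and 2.04-fold (0.881 to 4.02). Dtx3 was above the genome mean in myotubes alone, from 1 read in myoblasts and 9 in myotubes. Among the 10 members Hey2, at 3.46-fold and 2.80-fold, was nearest to the higher levels. Hes6, a gene of the Hes family that is not a member, had 37.3-fold and 60.5-fold H3K4me3 and 67.4-fold and 63.3-fold H3K27ac. Its H3K4me2 was 127-fold and 47.6-fold, with a relative ratio of 0.635 (0.530 to 0.758). Its H3K4me1 was 12.2-fold and 4.28-fold, with 0.406 (0.235 to 0.676), past 2-fold.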
